A study of Mus musculus with 6 samples.

Results

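The miR-181 family was described through 7 mature names, all of which were found among the 2009 names of the deposited small RNA table. They were taken by name whatever their values, but the choice was made with earlier results of these data known. They are the 5p strands mmu-miR-181a-5p, mmu-miR-181b-5p, mmu-miR-181c-5p and mmu-miR-181d-5p, and the 3p strands mmu-miR-181a-1-3p, mmu-miR-181a-2-3p and mmu-miR-181c-3p (mmu for mouse, left out below). Beside them stand 3 further mature names cut from the same hairpins, miR-181b-1-3p, miR-181b-2-3p and miR-181d-3p. The libraries came from male mouse hearts perfused on a Langendorff system, which feeds an isolated heart through the aorta. In the 3 sham hearts the beat was not stopped. The 3 ischemia-reperfusion (I/R) hearts were arrested with Tomas cardioplegia, as the labels spell it, for 30 min and reperfused for 1 h, so arrest, ischemia and reperfusion cannot be told apart. The strain, the age and any pooling were not given in the labels, which name 1 biological replicate per library. The titles say miRNA-seq, while the kits named in the protocol are for poly(A) mRNA.

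A miRNA is cut from a hairpin precursor, from which either the 5p or the 3p strand is loaded into an Argonaute protein and pairs, mainly through its seed (bases 2 to 8), with target mRNAs that are then repressed. The miR-181 hairpins lie in pairs, so that an a or c hairpin sits beside a b or d hairpin on the same transcript. The family is known for tuning T cell receptor signalling in developing T cells, for restraining NF-kappaB signalling in endothelium, and, for miR-181c in heart, for entering mitochondria and lowering a cytochrome c oxidase subunit encoded there. Whole-heart RNA does not show where in the cell a miRNA lay, and in such bulk samples fewer cells of a type and less RNA per cell cannot be told apart.

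The mature sequences show which names the family's seed joins and which it does not. All 7 members and the 3 other names were matched by name in RefSeq (GRCm38.p6), and the seed is in capitals.
miR-181a-5p: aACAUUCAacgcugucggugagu
miR-181b-5p: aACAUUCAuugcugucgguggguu
miR-181c-5p: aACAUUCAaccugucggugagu
miR-181d-5p: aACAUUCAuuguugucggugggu
miR-181a-1-3p: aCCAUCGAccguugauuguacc
miR-181a-2-3p: aCCACCGAccguugacuguacc
miR-181c-3p: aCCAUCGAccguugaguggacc
The seed ACAUUCA was shared by the 4 5p names and by no other of the 1679 mature names in that table. Against miR-181a-5p, counted from its 5′ end, miR-181b-5p carries A9U, C10U and A21G, and miR-181d-5p carries the same 3 substitutions and C12U. miR-181c-5p is 22 nt long and lacks 1 G of the 23 nt of miR-181a-5p. Among the 3p names, miR-181a-2-3p differs from miR-181a-1-3p by U5C, which falls in the seed, and by U16C. miR-181c-3p differs from miR-181a-1-3p by U16G and U19G and shares its seed CCAUCGA, so the 3p names of the a hairpins fall under different seeds. With differences this small, the counting could have moved reads between names, in particular between miR-181b-5p and miR-181d-5p, which differ by C12U and in length (24 and 23 nt), and the single names are uncertain to that extent.

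The 6 hairpins form 3 clusters on different chromosomes (GRCm38). Mir181a-1 (chromosome 1, 137966455 to 137966541) and Mir181b-1 (137966639 to 137966718) lie on the plus strand, 97 bases apart, in an intron of the noncoding gene Gm4258. Mir181b-1 also lies inside an exon of the lincRNA A430106G13Rik, which starts within Mir181a-1. Mir181a-2 (chromosome 2, 38852735 to 38852810) and Mir181b-2 (38853830 to 38853918) lie 1019 bases apart on the plus strand, opposite to an intron of Nr6a1, a nuclear receptor gene. Mir181c (chromosome 8, 84178873 to 84178961) and Mir181d (84178716 to 84178787) lie 85 bases apart on the minus strand in an intron of Nanos3. The names miR-181a-5p and miR-181b-5p each come from 2 hairpins with the same mature sequence, so their reads cannot be assigned to a cluster, while each 3p name belongs to 1 hairpin. The hairpins of miR-181a show this, with the mature 5p and 3p strands in capitals: the 5p strand is identical, and the 3p strand carries the differences. Mir181d is shown because no read was listed for its 3p strand.
Mir181a-1: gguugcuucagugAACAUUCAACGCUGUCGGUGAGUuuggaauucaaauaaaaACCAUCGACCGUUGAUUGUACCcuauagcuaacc
Mir181a-2: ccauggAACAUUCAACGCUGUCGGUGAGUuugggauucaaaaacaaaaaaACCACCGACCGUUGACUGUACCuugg
Mir181d: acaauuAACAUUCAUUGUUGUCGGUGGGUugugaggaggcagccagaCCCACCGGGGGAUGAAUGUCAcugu

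Values are reads per 1000000 reads on all listed names (RPM), from 7874103 to 9197869 recovered reads per library, and each mature miRNA of 21 to 24 nt counts once per read whatever its length. A limit of 3 reads was 0.326 to 0.381 RPM, and this limit covers counting error only, while the 95% intervals given below cover the spread between hearts. The labelled tissue was checked on 4 muscle miRNAs (miR-1a-3p, miR-133a-3p, miR-208a-3p and miR-499-5p), which together held 35.8% to 39.0% of the reads of each library. miR-1b-5p, which is not on that list, averaged 190133 RPM in the sham and 182563 RPM in the I/R hearts. The means of miR-1a-3p were 380232 and 365121 RPM. Whether reads were split between these names was not tested. The 5 leukocyte miRNAs summed to 109 to 144 RPM in the sham and 119 to 122 RPM in the I/R hearts, the 4 endothelial ones to 24976 to 27579 and 25929 to 31932 RPM, the 4 smooth muscle and fibroblast ones to 35740 to 46968 and 41341 to 50039 RPM, and the 3 red blood cell ones to 1292 to 1603 and 1432 to 1793 RPM. No marker was at 0 in every library, and the groups overlapped in each of these 4 sums. The red blood cell sum was nearly all miR-486a-5p, with means of 1456 RPM in the sham and 1553 RPM in the I/R hearts. Its other names, miR-451a (4.72 and 2.75 RPM) and miR-144-3p (0.449 and 0.246 RPM), were scarce and had lower means in I/R. The muscle sum was 385458 to 389856 RPM in the sham and 357828 to 383230 RPM in the I/R hearts, without overlap. It was nearly all miR-1a-3p. Of its 4 names, 3 had lower means in I/R, and miR-499-5p had a higher one (5602 and 5679 RPM). Among single names, groups also did not overlap for 62 of the 409 tested (15.2%). The part of the muscle sum in the levels below was not tested.

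The family was led by miR-181a-5p, the strand best known from T cells. It stood at 396, 453 and 404 RPM in sham replicates 1 to 3 and at 454, 445 and 447 RPM in I/R replicates 1 to 3. The I/R hearts lay close together, and sham replicate 2 lay among them, so the groups overlapped. With a mean of 433 RPM over the 6 libraries it ranked 64th of all names. The next member by level was not a 5p strand but miR-181a-2-3p, with 351, 218 and 311 RPM in the sham and 306, 281 and 359 RPM in the I/R hearts. Sham replicate 2 was the lowest library for this strand although it was the second highest for miR-181a-5p. miR-181a-2-3p ranked 73rd of all names.

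miR-181b-5p, known from endothelium, stood at 108, 123 and 112 RPM in the sham and 114, 106 and 145 RPM in the I/R hearts, with I/R replicate 3 above the other 5. miR-181d-5p stood at 67.2, 84.1 and 65.9 RPM in the sham and 66.4, 70.3 and 84.7 RPM in the I/R hearts, with sham replicate 2 and I/R replicate 3 above the rest. Both groups spanned nearly the same range.

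miR-181c-5p, the strand reported in heart mitochondria, had the lowest mean of the 7 members. It held 6.09, 10.2 and 6.17 RPM in the sham and 9.52, 7.21 and 5.84 RPM in the I/R hearts, which is 46 to 90 reads per library. One heart of each group, sham replicate 2 and I/R replicate 1, lay above the others. Its partner strand miR-181c-3p held 9.57, 8.02 and 8.52 RPM in the sham and 9.76, 7.46 and 7.75 RPM in the I/R hearts, from 61 to 88 reads. miR-181a-1-3p, the 3p strand of the chromosome 1 cluster, held 16.6, 12.9 and 15.2 RPM in the sham and 16.7, 15.7 and 15.4 RPM in the I/R hearts. The 3p strands of miR-181b were near the limit of counting, at 0.635 to 1.71 RPM (5 to 14 reads) for miR-181b-1-3p and 0.870 to 2.26 RPM (8 to 20 reads) for miR-181b-2-3p.

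**Figure D1:**
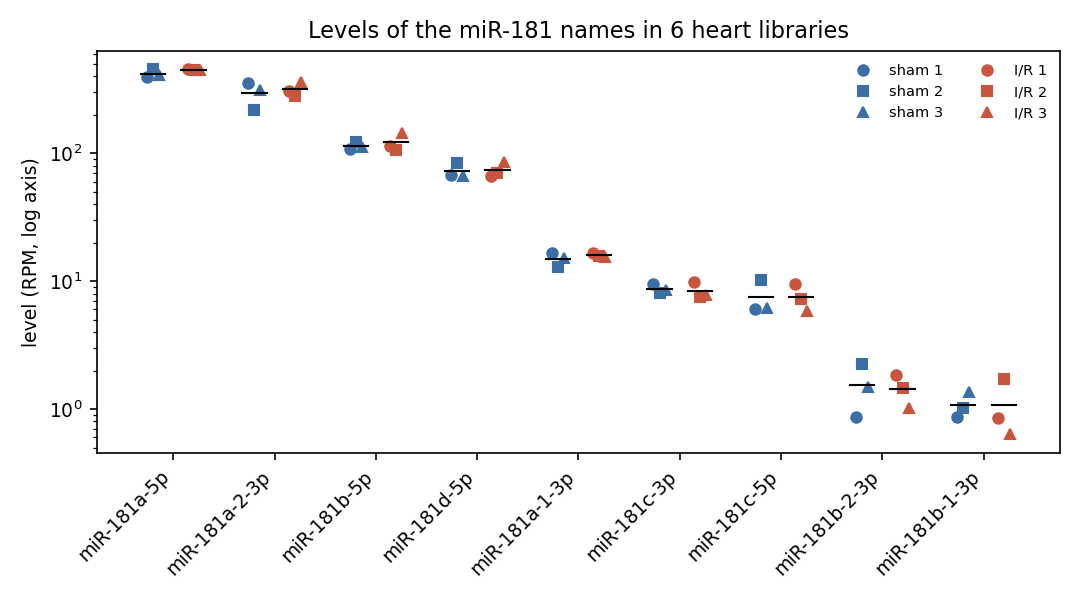
Level in RPM on a log axis of the 9 miR-181 names above 0, ordered by mean. Each point is 1 heart library (blue sham, red I/R, marker shape by replicate number) and each bar a group mean of 3. From miR-181a-5p at 396 to 454 RPM to miR-181b-1-3p at 0.635 to 1.71 RPM the order spans the plot, and the 2 groups overlap for every name.

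Ordered by mean level, the names ran miR-181a-5p, miR-181a-2-3p, miR-181b-5p, miR-181d-5p, miR-181a-1-3p, miR-181c-3p, miR-181c-5p, miR-181b-2-3p and miR-181b-1-3p. The ranges over the 6 libraries did not overlap between neighbours, with 2 exceptions. miR-181c-3p and miR-181c-5p overlapped, the 3p strand being the higher in 5 of 6 libraries, and so did the 2 strands of miR-181b, miR-181b-2-3p being the higher in 4. The step from miR-181a-5p to miR-181a-2-3p was 1.42-fold between means, and 1.13-fold to 2.07-fold in single libraries. That from miR-181d-5p to miR-181a-1-3p was 4.74-fold. The labels name no calibration of how well each sequence enters a library, so a level compared between names is a comparison of read shares.

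The spread between hearts of a group differed between members. Pooled over both groups, the coefficient of variation was 5.06% for miR-181a-5p and 18.3% for miR-181a-2-3p, against a median of 10.1% for the 69 names with a mean of 100 to 1000 RPM. Among these 69, miR-181a-2-3p had the 15th highest and miR-181a-5p the 63rd highest value. Set against counting error, the chi-square per degree of freedom within groups was 90.5 for miR-181a-2-3p, 10.2 for miR-181a-5p, 11.2 for miR-181d-5p and 15.8 for miR-181b-5p, where counting error gives values near 1. It was 1.09 for miR-181c-3p and 1.21 for miR-181a-1-3p, whose hearts thus differed by about counting error. miR-181c-5p, at a level like that of miR-181c-3p, reached 5.03. This chi-square grows with the number of reads, so it does not compare the spread of names at unlike levels. The coefficient of variation was 12.3% for miR-181c-3p, close to 13.0% for miR-181b-5p and 13.5% for miR-181d-5p. For miR-181c-5p it was 28.1%.

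I/R against sham was the comparison given by the treatment labels, and the family was read within it. No miR-181 name passed the test: limma's adjusted p over the 409 names tested was 0.742 to 0.976, and called names were 0% of all 409 as well. At an unadjusted p under 0.05, limma had 30 of the 409 names (7.33%) and 0 of the 7 members, and DESeq2 on recovered reads called 2 of the 409 at adjusted p under 0.05 and edgeR 0, none of them a miR-181 name. The groups did not overlap for 62 names (15.2%) and overlapped for all 7 members. Estimates were positive for 287 of the 409 names (70.2%) and for 6 of the 7 members, so the members' count is near the background. All 7 members and both miR-181b 3p strands passed the filter on low values. The median log2 fold change over the 7 members was 0.078, beside 0.10 over all 409 names.

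**Figure D2:**
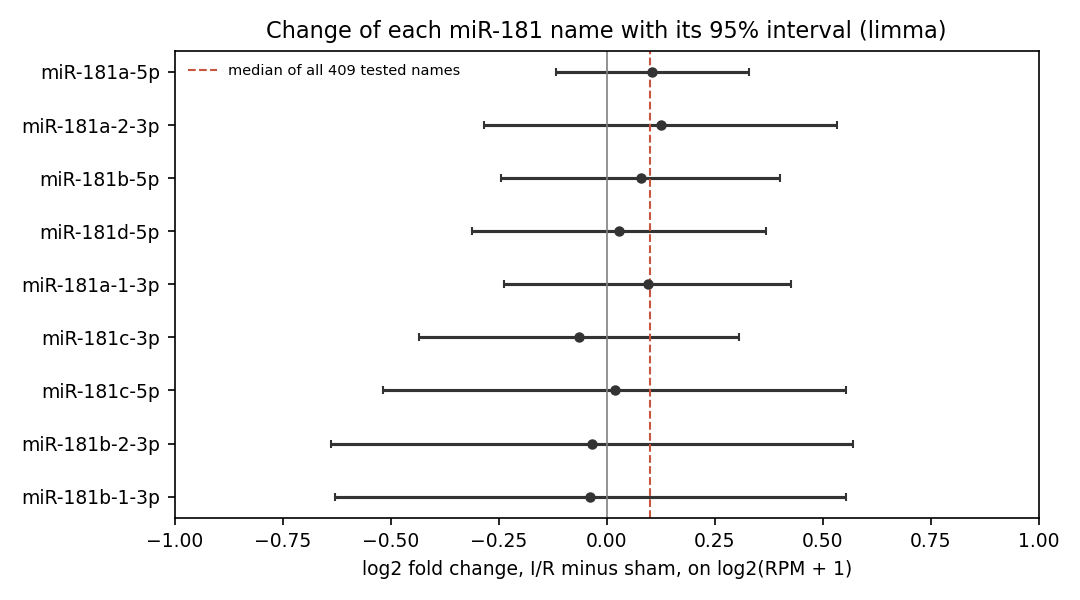
Log2 fold change of each of the 9 tested miR-181 names, I/R minus sham, on the log2(RPM + 1) scale. Points are limma estimates from 3 hearts per group, bars are 95% intervals, the grey line is 0 and the dashed line the median of all tested names, 0.10; every interval spans 0 and none reaches 1.

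The intervals give a range around each estimate from the spread between hearts, without adjustment over the 409 names tested. For miR-181a-5p the level was 418 ± 30.7 RPM in the sham and 449 ± 4.54 RPM in the I/R hearts (SD, n = 3 each), a log2 fold change of 0.11 with a 95% interval of -0.12 to 0.33, so a rise beyond 1.26 times lies outside it. For miR-181a-2-3p it was 293 ± 68.0 and 316 ± 39.8 RPM (SD, n = 3 each), a log2 fold change of 0.13 (interval -0.28 to 0.53). The estimates for both names lay near the median of all names. The sign for miR-181a-5p turned with quantile normalization (-0.035) and in edgeR (-0.0086), and that for miR-181a-2-3p in edgeR (-0.021), in DESeq2 (-0.0062) and without sham replicate 2 (-0.073).

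For miR-181b-5p, 114 ± 7.51 and 122 ± 20.4 RPM (SD, n = 3 each) gave a log2 fold change of 0.078 (95% interval -0.24 to 0.40). For miR-181d-5p, 72.4 ± 10.1 and 73.8 ± 9.65 RPM gave 0.028 (interval -0.31 to 0.37). For the chromosome 1 strand miR-181a-1-3p, 14.9 ± 1.89 and 15.9 ± 0.711 RPM gave 0.095 (interval -0.24 to 0.43). These 3 differences were all smaller than the spread between hearts of the wider group.

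The mitochondria-linked miR-181c-5p showed nearly equal means, 7.48 ± 2.33 RPM in the sham and 7.52 ± 1.86 RPM in the I/R hearts (SD, n = 3 each). Its log2 fold change of 0.019 had a 95% interval of -0.52 to 0.55, or 0.699 to 1.47 times on the log2(RPM + 1) scale, where changes of scarce names come out too small. The interval was not adjusted over the 409 names tested and is not a limit of detection. The smallest change detectable at this depth and number of hearts was not tested. miR-181c-3p was at 8.70 ± 0.788 and 8.32 ± 1.25 RPM, a log2 fold change of -0.063 (interval -0.43 to 0.31). The miR-181b 3p strands gave -0.035 and -0.038 with intervals inside -0.64 to 0.57.

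The dose of the shared seed was followed as the sum of the 4 5p names. It was 577, 670 and 589 RPM in the sham and 644, 629 and 682 RPM in the I/R hearts. Sham replicate 2 lay above 2 of the 3 I/R hearts, and the means of 612 ± 50.3 and 652 ± 27.6 RPM (SD, n = 3 each) gave a two-sided exact permutation p = 0.3, where 3 against 3 libraries cannot go below 0.1. With median-ratio scaling the difference of 40.0 RPM became -2.94 RPM.

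The make-up of that sum, which no factor per library can change, differed between groups by less than the wider SD for each name. miR-181a-5p supplied 68.3 ± 0.590% of it in the sham and 69.0 ± 2.96% in the I/R hearts (SD, n = 3 each), miR-181b-5p 18.7 ± 0.392% and 18.6 ± 2.29%, miR-181d-5p 11.8 ± 0.694% and 11.3 ± 1.06%, and miR-181c-5p 1.21 ± 0.270% and 1.16 ± 0.311%. The exact permutation p was 0.4 to 1, and 1 for each share after adjustment over the 4. The I/R shares of miR-181a-5p and miR-181b-5p were spread more widely, with I/R replicate 3 apart from the other 2: it had the lowest share of miR-181a-5p (65.5%) and the highest of miR-181b-5p (21.2%).

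**Figure D3:**
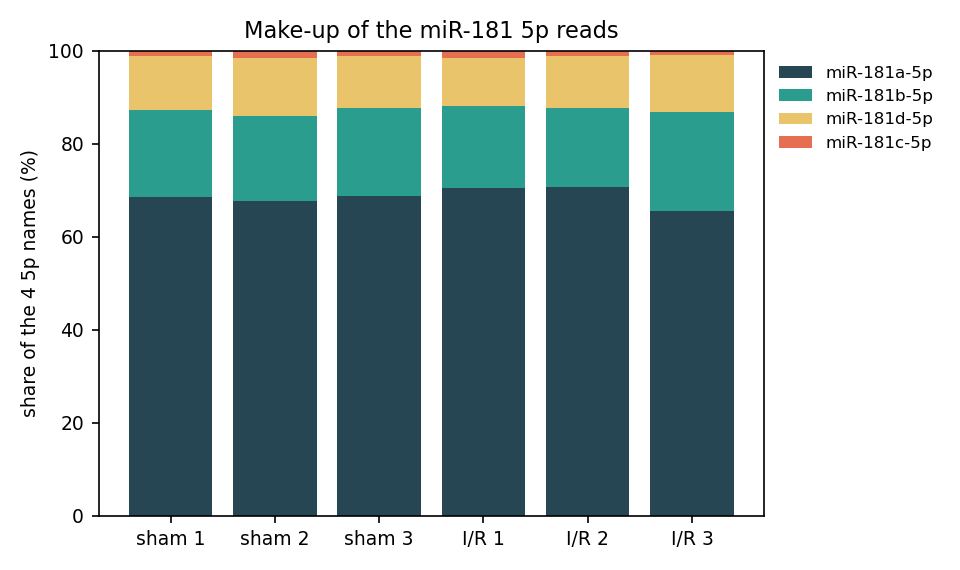
Share in percent of each 5p name in the sum of the 4 5p names, 1 stacked bar per heart library. miR-181a-5p fills 65.5% to 70.8% of every bar and miR-181c-5p 0.856% to 1.52%; I/R replicate 3 has the largest part of miR-181b-5p, 21.2%.

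Pairs of members were also compared library by library. The share of miR-181b-5p in its sum with miR-181d-5p, which lies on another chromosome, was 61.7% over all libraries and 59.3% to 63.2% in single ones, with a chi-square per degree of freedom of 1.96. The corresponding values were 8.66 for miR-181a-5p with miR-181b-5p, which are neighbours in 2 clusters, and 3.58 for miR-181c-5p with miR-181d-5p, which are neighbours in 1. The level of miR-181b-5p was 1.46 to 1.72 times that of miR-181d-5p in every library, although the hairpins do not share a cluster. These chi-square values grow with the number of reads, and whether reads were split between the names was not tested.

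The 3p strands tell the miR-181a hairpins apart. The chromosome 2 strand miR-181a-2-3p exceeded the chromosome 1 strand miR-181a-1-3p by 21.1, 17.0 and 20.5 times in the sham and by 18.3, 18.0 and 23.4 times in the I/R hearts. miR-181a-1-3p thus made up 4.92 ± 0.569% of both strands in the sham and 4.85 ± 0.649% in the I/R hearts (SD, n = 3 each), with an exact permutation p = 1. The 3p strands of the b hairpins in the same clusters were not so uneven. miR-181b-1-3p held 31.0% to 53.8% of both, but on 13 to 29 reads per library.

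Arm balance, the ratio of 5p to 3p reads of a hairpin, set the members apart from each other. For miR-181a the 5p name exceeded the sum of both 3p names by 1.08, 1.96 and 1.24 times in the sham and by 1.41, 1.50 and 1.19 times in the I/R hearts. For miR-181c the ratio was 0.636, 1.27 and 0.725 in the sham and 0.975, 0.967 and 0.754 in the I/R hearts, so that sham replicate 2 was the 1 heart with more 5p than 3p reads. In both cases sham replicate 2 had the highest ratio of the 6 libraries, as it did for 34 of the 96 hairpins tested below (35.4%), against 8 to 16 hairpins for each other library. For miR-181b the 5p name exceeded both 3p names by 33.4 to 87.6 times.

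Among the 96 hairpins with both arms above the filter, 28 (29.2%) lay within 2-fold of equal arms, and miR-181a and miR-181c were among them. By closeness to equal arms miR-181c ranked 8th, miR-181a 16th and miR-181b 67th. For this ranking 1 RPM was added to each arm. The miR-181d hairpin stood outside this set. Its 3p name was listed at 0 reads in all 6 libraries beside 534 to 744 reads of miR-181d-5p. With the 3-read limit in each library the 5p strand was at least 178-fold higher. Of 58 hairpins with both names listed and a 5p mean no lower than the lowest library value of miR-181d-5p, 65.9 RPM, the 3p name was at 0 throughout for 2, miR-181d and miR-20a.

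No arm balance of the family passed the test between groups, and for all 3 the groups overlapped, while 11 of the 96 hairpins (11.5%) had groups without overlap. These log2 ratios were taken with 1 RPM added to each arm. That makes the ratio of miR-181b smaller, since its 3p strands are scarce (mean ratio without the addition 50.4). The log2 ratio of miR-181a was 0.46 ± 0.45 in the sham and 0.44 ± 0.17 in the I/R hearts, that of miR-181b 5.02 ± 0.26 and 5.14 ± 0.57, and that of miR-181c -0.23 ± 0.47 and -0.14 ± 0.18 (SD, n = 3 each). limma gave changes of -0.018, 0.13 and 0.082 with adjusted p = 0.968 for each, and called 0% of the 96 hairpins, with 6 (6.25%) at an unadjusted p under 0.05. The 95% intervals were -0.60 to 0.56, -0.60 to 0.85 and -0.52 to 0.68 on the log2 scale.

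**Figure D4:**
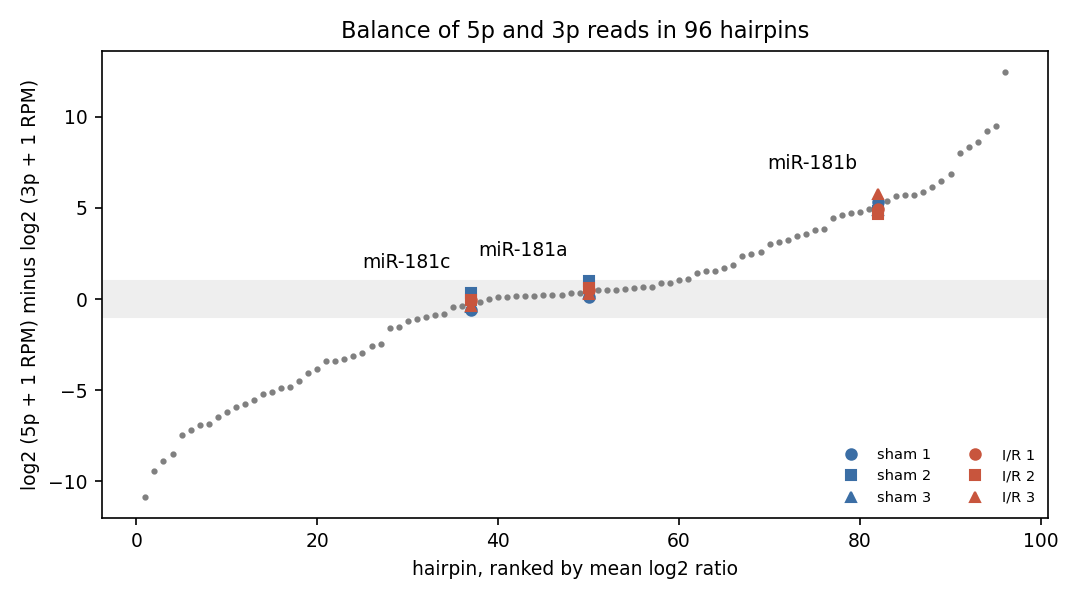
Log2 ratio of 5p to 3p level for 96 hairpins ranked by their mean (grey points), with the 6 heart libraries shown for miR-181a, miR-181b and miR-181c (blue sham, red I/R); the grey band marks ratios within 2-fold of equal. Each level had 1 RPM added before the ratio was taken. miR-181a and miR-181c lie in the band, with sham replicate 2 highest in both, and miR-181b lies near 5.08.

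The chromosomal neighbours of the miR-181c and miR-181d hairpins differed widely in level from each other. The Mir23a hairpin starts 29556 bases from Mir181c on the opposite strand, with Mir27a next to it. miR-27a-3p stood at 5240 ± 285 RPM in the sham and 5985 ± 413 RPM in the I/R hearts (SD, n = 3 each; log2 fold change 0.19, limma adjusted p = 0.598), and miR-23a-3p at 96.2 ± 34.5 and 88.8 ± 6.84 RPM (-0.060, limma adjusted p = 0.935). The mean of miR-27a-3p was 748 times that of miR-181c-5p and that of miR-23a-3p 12.3 times. Against miR-181d-5p these ratios were 76.8 and 1.27, and the values of miR-23a-3p in sham replicates 1 and 3 and I/R replicate 1, 73.2, 79.5 and 84.6 RPM, lay inside the range of miR-181d-5p.

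The names whose log2 levels ran most like a member over the 6 libraries were sought by Pearson's r, as a description. For miR-181a-5p they were miR-322-3p (r = 0.98), miR-27a-5p (0.98) and miR-101b-3p (0.94). For miR-181c-5p they were miR-223-3p, a myeloid miRNA (0.96), miR-16-1-3p (0.93) and miR-350-5p (0.93). Spearman's rank correlations, in the same order, were 0.83, 0.60 and 0.83 for miR-181a-5p and 0.94, 0.83 and 0.94 for miR-181c-5p. The lowest values of miR-27a-5p were in sham replicates 1 and 3 (84.4 and 98.4 RPM). Pearson's r taken for each of the 409 names with its best partner had a median of 0.97. Likeness of this size was thus common in these 6 libraries, whose values were scaled to 1 total. miR-223-3p held 3.37, 7.46 and 2.47 RPM in the sham and 5.86, 4.40 and 2.41 RPM in the I/R hearts. Its 2 highest values were in the hearts that were highest for miR-181c-5p, sham replicate 2 and I/R replicate 1. The leukocyte sum was highest, 144 RPM, in sham replicate 2. In I/R replicates 1 to 3 that sum was 120, 119 and 122 RPM, so I/R replicate 1 did not stand out. The other strand, miR-223-5p, averaged 15.5 RPM in the sham and 19.9 RPM in the I/R hearts. The part of leukocytes in the level of miR-181c-5p was not tested.

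Other miRNAs linked to mitochondria in heart were read beside miR-181c. The list held miR-1a-3p, miR-21a-5p, miR-34a-5p, miR-146a-5p, miR-210-3p, miR-378a-3p, miR-499-5p and let-7b-5p, all of which passed the filter. Of these 8, 0 passed limma's test (adjusted p 0.598 to 0.992), 5 had positive and 3 negative estimates, and the median log2 fold change was 0.011 beside 0.10 over all names. miR-378a-3p, which is encoded in the gene of a mitochondrial gene coactivator, Ppargc1b, stood at 23325 ± 908 RPM in the sham and 25049 ± 1766 RPM in the I/R hearts (SD, n = 3 each). miR-146a-5p, an inhibitor of innate immune signalling, stood at 123 ± 9.72 and 157 ± 50.3 RPM, and miR-34a-5p, a p53-induced miRNA, at 16.3 ± 1.32 and 16.3 ± 0.314 RPM. All 8 lay above miR-181c-5p in level, and the scarcest of them, miR-34a-5p, was closest to it.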

How the data were processed

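Small RNA was measured in 6 mouse heart libraries, 3 sham and 3 I/R, and samples were grouped by the treatment label. The authors deposited 1 signal value per mature name and library. The submitters' processing notes name fastp 0.23.0, bcl2fastq 2.19.1.403 and the build mm10. What was not given in the sources used here includes the aligner, the miRNA annotation, the use of strand and the handling of multi-locus reads. The deposited signal columns summed to 1 total, and 100% of values were whole multiples of the column's smallest value (tolerance 0.01 reads), as reads times 1 factor per library, so reads and RPM were recovered. The design, written for a normalized unit, was kept.

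Levels were tested with limma 3.58.1 (R 4.3.3, trended) on log2(RPM + 1), two-sided, with Benjamini-Hochberg adjustment over the 409 names that averaged 1 RPM or more and had reads in 3 or more libraries; single values were tested with exact permutation. Arm balance was tested likewise on the log2 ratio of arms, with miR-181a-5p and miR-181b-5p set against the sum of their 3p names. The tests were checked on simulated data. The changes simulated there were larger than those inside the intervals given above, so that check does not cover small changes. Alternatives included edgeR 4.0.16 and DESeq2 1.42.0 on recovered reads.

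Named were all 7 members, the other names of their hairpins, the 3 names most correlated with miR-181a-5p and with miR-181c-5p, and 2 neighbours. Members and lists were chosen with earlier results of these data known. With each group's mean taken away, sham and I/R libraries of equal replicate number were weakly and positively correlated (0.14, 0.28 and 0.16). Libraries of unequal number gave -0.19 to 0.069. Values centred within groups this small constrain each other, so these correlations cannot decide whether libraries were paired. The labels name no shared day. The main tests used no pairing, and a block by replicate number was run as an alternative only. P-values from limma set group differences against the spread between these libraries, moderated over all names tested.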

Additional observations from a re-analysis of the deposited data

How the results depend on the processing

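Under the alternatives run, 0 of 166 refitted log2 fold changes of the 9 miR-181 names passed (lowest adjusted p 0.489), 130 kept their sign, and the largest size was 0.27. The median over all 409 names moved from 0.10 to 0.0075 with median-ratio scaling, 0.034 with totals taken without the 10 most abundant names, -0.011 with quantile normalization, -0.0070 in edgeR and 0.0090 in DESeq2. Signs turned as follows. With median-ratio scaling miR-181b-5p, miR-181c-5p and miR-181d-5p were at -0.020, -0.066 and -0.069, and the summed 5p level differed by -2.94 RPM. With totals without the top 10, miR-181c-5p and miR-181d-5p were both at -0.042. With quantile normalization miR-181a-5p, miR-181b-5p, miR-181c-5p, miR-181d-5p and miR-181a-1-3p were at -0.035, -0.10, -0.092, -0.15 and -0.044. In edgeR miR-181a-5p was at -0.0086, and miR-181b-5p, miR-181c-5p, miR-181d-5p, miR-181a-1-3p and miR-181a-2-3p were at -0.030, -0.095, -0.090, -0.022 and -0.021; in DESeq2 these last 5 were at -0.014, -0.077, -0.074, -0.0065 and -0.0062. With array weights miR-181b-2-3p was at 0.11.

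Leaving out each library in turn gave log2 fold changes of 0.069 to 0.17 for miR-181a-5p, -0.052 to 0.17 for miR-181b-5p, -0.14 to 0.24 for miR-181c-5p, -0.074 to 0.14 for miR-181d-5p, 0.00058 to 0.17 for miR-181a-1-3p, -0.073 to 0.27 for miR-181a-2-3p, -0.17 to 0.0028 for miR-181c-3p, -0.11 to 0.11 for miR-181b-1-3p and -0.24 to 0.16 for miR-181b-2-3p. Arm ratios changed by -0.20 to 0.23 for miR-181a, -0.19 to 0.36 for miR-181b and -0.093 to 0.35 for miR-181c. The summed 5p level differed by 22.6 to 68.8 RPM. Shares differed by -0.277 to 2.35 points for miR-181a-5p, -1.40 to 0.757 for miR-181b-5p, -0.206 to 0.109 for miR-181c-5p, -1.06 to -0.0049 for miR-181d-5p and -0.278 to 0.306 for miR-181a-1-3p among both 3p names. Without sham replicate 2, miR-181a-2-3p was at -0.073 and the miR-181a arm ratio changed by 0.23.

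The number of names called over the whole table was 4 with the replicate block, 1 without a filter, 2 in DESeq2 and 0 to 1 with a library left out, and 0 otherwise; none was a miR-181 name. The block changed no miR-181 call, with adjusted p of 0.739 to 0.973, and called 0 of 96 arm ratios. At a filter of 10 RPM miR-181c and the miR-181b 3p strands gave no value. The miR-181b 3p strands rest on 5 to 20 reads per library and miR-181c-5p on 46 to 90. Apart from settings that test other names or fewer libraries, the cause of these differences was not tested.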
